A study of Homo sapiens with 27 samples.

Results

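The AP-1 and EGR early response factors are genes of which most are switched on within minutes by growth factor, stress and kinase signals. They were chosen by name: the FOS family members FOS, FOSB, FOSL1 and FOSL2, the JUN family members JUN, JUNB and JUND, the zinc finger factors EGR1 and EGR3, and IER3, an early response gene that encodes a survival protein. All 10 were found by Ensembl identifier among the 21487 gene identifiers of 1 count table, and 7 of the 10 passed the filter on low counts. FOSB and JUNB were listed at 0 in all 27 libraries, and EGR3 had too few reads for a test.

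Polyadenylated RNA was sequenced from Panc1, an established human pancreatic ductal adenocarcinoma cell line. Parental (control) Panc1 cells were set beside clones A and B, derived independently with CRISPR-Cas9 to lose ARNT, the partner that HIF-1α and HIF-2α need to bind DNA. Each genotype was kept for 48 h in normoxia (20% O2, DMEM with 10% FBS and 1% P/S), in hypoxia (1% O2) with that same medium, or in hypoxia with TIFM, a medium made to resemble the interstitial fluid of pancreatic tumours. This gave 9 groups of 3 libraries. Each knockout line is 1 clone, so a change seen in 1 clone cannot be told apart from a trait of that clone. No label states whether replicates are separate cultures, and the p-values reflect library-to-library spread that may be technical. Because TIFM was used in hypoxia only, its effect at 20% O2 was not measured. An FBS content was recorded for regular medium only, so whether serum differed between the media is not known here.

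AP-1 is a dimer of a FOS protein with a JUN protein, or of JUN proteins with each other, that binds TGACTCA in promoters and enhancers. ERK signalling phosphorylates ELK1, which acts with SRF on CArG boxes to induce FOS and EGR1, while JNK phosphorylates JUN. FOS, FOSB and EGR1 messengers are short lived, whereas FOSL1 and FOSL2 proteins persist in cells with sustained ERK signalling.

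Of the 10 genes, 7 had an entry among the RefSeq promoter sequences (build GRCh38.p14), which run over 300 bases from 250 before to 50 after each start site. They were FOS, FOSB, FOSL2, JUN, JUNB, JUND and EGR1. The stretches below come from the genes with the clearest responses to hypoxia and to TIFM. FOSL2 is shown at chr2:28392608-28392801, plus strand, from position -250 to -57, with the ACGTG core of a HIF site in capitals. EGR1 is shown at chr5:138465229-138465478, plus strand, from position -250 to -1, with its CArG boxes in capitals.
FOSL2: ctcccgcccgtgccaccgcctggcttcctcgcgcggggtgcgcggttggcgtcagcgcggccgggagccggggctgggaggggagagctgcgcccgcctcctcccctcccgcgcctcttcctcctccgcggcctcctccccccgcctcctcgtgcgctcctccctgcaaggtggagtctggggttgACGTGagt
EGR1: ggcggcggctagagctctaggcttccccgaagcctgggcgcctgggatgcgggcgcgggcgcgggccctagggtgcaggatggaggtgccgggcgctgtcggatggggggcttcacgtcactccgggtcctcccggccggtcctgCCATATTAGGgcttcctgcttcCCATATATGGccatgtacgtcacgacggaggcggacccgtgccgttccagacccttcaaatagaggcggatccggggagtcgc
Both strands were searched. The ACGTG of FOSL2 began at position -64 on the gene's strand. A TGACTCA, the AP-1 letters, began at position 5 after its start. EGR1 had CArG boxes starting at positions -105 and -83, which read as CArG boxes on both strands, and an ACGTG on the opposite strand beginning at position -137. JUND had the CRE letters TGACGTCA at position -200. None of these motifs overlapped another, and no motif searched was in the windows of FOS, FOSB, JUN or JUNB. Among all 35116 promoter windows, 21.4% held ACGTG, 4.95% TGACTCA, 1.85% TGACGTCA and 1.29% a CArG box. The EGR letters GCGGGGGCG were in 5.07% and GCGTGGGCG in 0.795% of windows, and in none of the 7 listed here. These matches describe the letters and do not show binding.

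Libraries held 26057022 to 38341713 counted reads, with a median of 31727174. KRT8, KRT18, KRT19 and VIM, which mark Panc1 cells as epithelial cells with mesenchymal traits, were at 71.9 CPM or more in every library, where CPM is the read count scaled by TMM to a common library size. KRT7 was low, at 2.02 to 12.4 CPM. The summed level of the 5 Panc1 markers was 7160 to 13400 CPM across regular-medium libraries and 2690 to 6990 CPM in TIFM. The 14 markers of other cell types together reached 3.28 to 15.8 CPM over all groups, highest in TIFM libraries of clone A, and the insulin gene INS was at 0 throughout. ARNT was still transcribed in the clones, at 55.3 to 75.5 CPM in clone A group means and 48.8 to 64.8 CPM in clone B, which checks nothing of the protein. VEGFA, a HIF target, rose from 55.7 ± 2.24 to 386 ± 8.45 CPM with hypoxia in parental cells (SD, n = 3 each). Its means went from 69.7 to 105 CPM in clone A and from 37.5 to 62.4 CPM in clone B.

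In hypoxia, parental cells raised FOSL2 and lowered FOSL1, and clone A lowered FOSL1 without the FOSL2 rise. Genes were tested in 1 edgeR quasi-likelihood fit to all 27 libraries, with Benjamini-Hochberg adjustment over 13943 genes and a threshold of 0.05. In parental cells 2 of the 7 tested genes rose (FOSL2, JUND) and 1 fell (FOSL1), where 15.4% of all genes rose and 14.9% fell. In clone A 3 rose (FOS, EGR1, JUND) and FOSL1 fell, against 10.4% and 11.8% of all genes. In clone B the count was 0 of 7 in edgeR, with 4.46% of all genes higher and 4.84% lower. There, 2 genes (EGR1, FOSL1) had an unadjusted p under 0.05 and DESeq2 called 1 (FOSL1). The fit pools the spread of all groups, whose biological coefficient of variation was 17.3 to 29.3% in TIFM groups and 4.54 to 12.7% in the others. Fitted on only the 6 libraries compared, all 7 genes passed in parental cells, 6 passed in clone A, and in clone B 3 did (EGR1, IER3, FOSL1). In those fits 6804 of 13086 genes passed in parental cells, 4860 of 12595 in clone A and 4242 of 13012 in clone B.

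TIFM, compared with regular medium in hypoxia, was marked by more FOSL1 and FOSL2 and less EGR1 in every genotype. In parental cells FOSL1 and FOSL2 rose and EGR1 and FOS fell, where 21.8% of all genes rose and 20.4% fell. Clone A raised FOSL1, FOSL2, JUN and JUND and lowered EGR1, so 5 of 7 changed, where 67.2% of all genes changed in either direction. In clone B, FOSL1 and FOSL2 rose and EGR1 and FOS fell, against 25.9% and 27.9%. The shares in both clones are thus near those of all genes. The fit pools the spread of all groups, and clone A in TIFM had the widest, at 29.3% against 14.1% in the shared fit. Fitted on only the 6 libraries compared, the same 5 genes passed in clone A, where 6981 of 12651 genes passed. Their adjusted p in edgeR was then 9.66e-05 (FOSL2), 0.000312 (FOSL1), 0.000404 (EGR1), 0.000664 (JUN) and 0.00829 (JUND). The hypoxia and TIFM comparisons of a genotype share their 3 hypoxic libraries in regular medium, so a low value there lowers one change and raises the other.

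**Figure D1:**
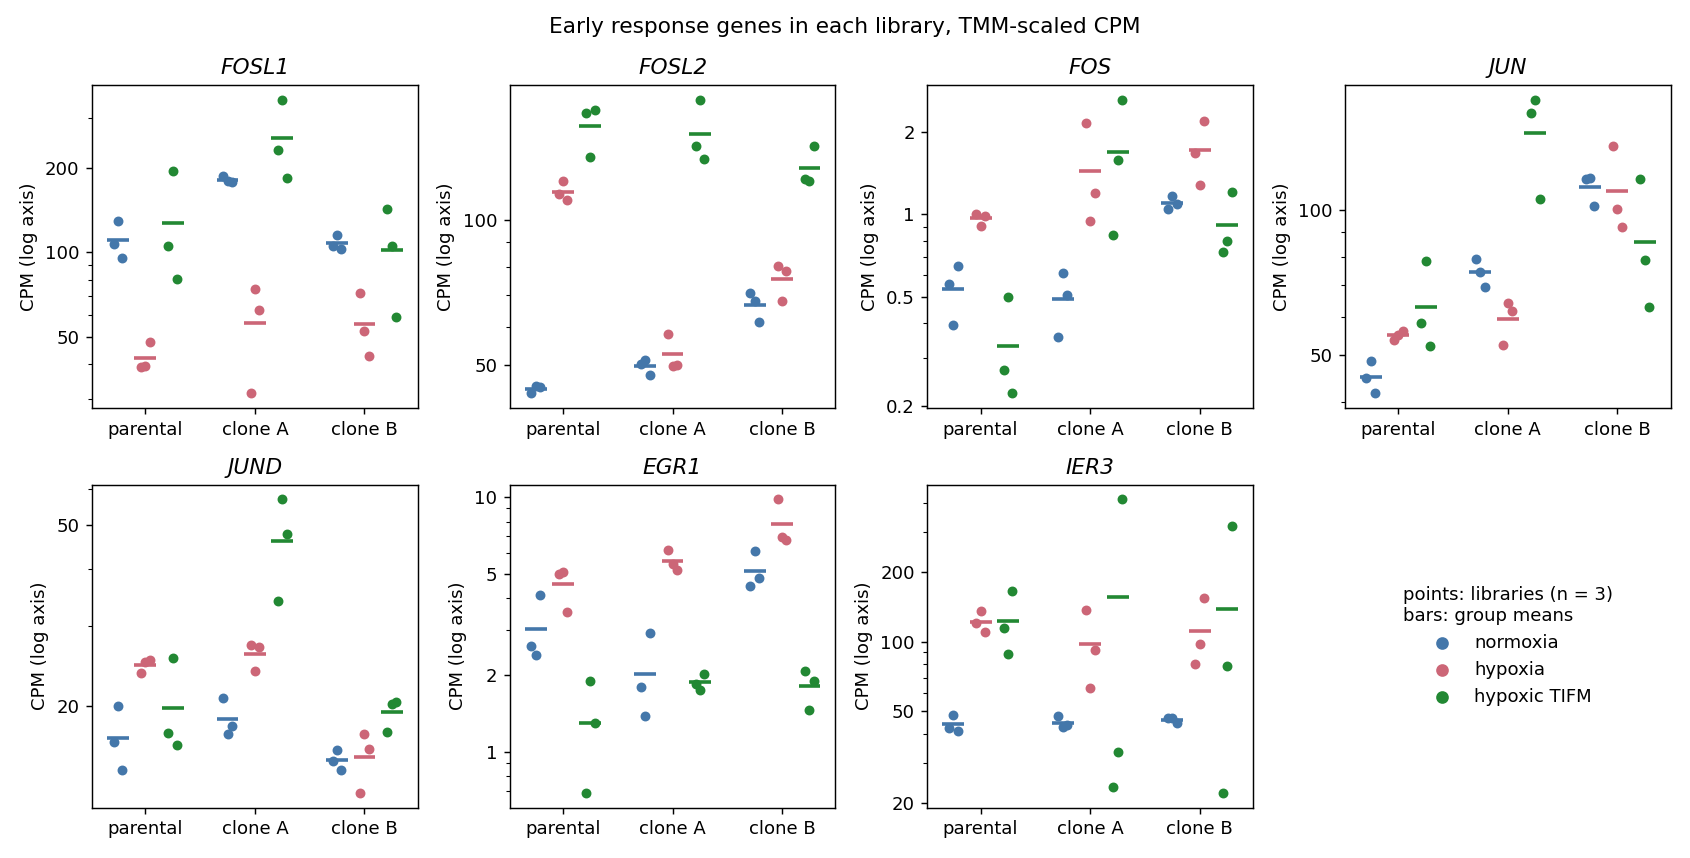
Level of each of the 7 tested genes in TMM-scaled CPM (log axis) in the 27 libraries, by genotype and condition, where points are libraries and bars are group means (n = 3). FOSL2 in hypoxia sits at 110.1 CPM or above in parental cells and at 80.4 CPM or below in both clones, and IER3 in TIFM spreads from 22.1 to 414 CPM.

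FOSL1 (ENSG00000175592, chromosome 11, 65892049 to 65900573, minus strand of GRCh38) encodes FRA-1, the FOS family member tied to invasion. Its level in parental normoxia was 108, 130 and 95.3 CPM, and hypoxia brought it to 39.1, 39.4 and 48.0 CPM. The groups did not overlap, and FOSL1 fell by 1.40 on the log2 scale (SE 0.31, adjusted p = 0.00136 by edgeR), from 111 to 42.1 CPM in the mean. In clone A it went from 187, 179 and 179 CPM to 31.6, 74.0 and 62.5 CPM, a log2 change of -1.70 ± 0.31 (SE, adjusted p = 0.000508). Replicate 1 of hypoxic clone A was the lowest of all 27 libraries. In clone B it went from 105, 116 and 103 CPM to 71.8, 52.7 and 42.8 CPM, with no overlap, and the log2 change of -0.95 ± 0.31 narrowly missed the threshold (adjusted p = 0.0509). FOSL1 passed there in DESeq2 (adjusted p = 0.0489), with a replicate block (0.0315), on only the libraries compared (0.00776) and without replicate 1 of hypoxic clone B (0.0459).

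FOSL1 in TIFM was 105, 195 and 80.3 CPM in parental cells, all above the 3 hypoxic libraries in regular medium, and it rose by a log2 of 1.59 ± 0.31 (adjusted p = 0.000231). In clone A it reached 232, 350 and 185 CPM, the highest group mean of the gene, with a log2 rise of 2.19 ± 0.32 (adjusted p = 1.34e-06). In clone B it was 143, 105 and 58.8 CPM, overlapping the 42.8 to 71.8 CPM of regular medium. That log2 rise of 0.88 ± 0.31 (adjusted p = 0.0191) was lost without replicate 2 or 3 of hypoxic clone B or replicate 1 of clone B in TIFM, with p up to 0.134. The TIFM response of clone B was lower than that of clone A by a log2 of -1.31 ± 0.43 (adjusted p = 0.0188). This difference missed the threshold without any 1 of 4 of its 12 libraries, replicate 1 of clone A hypoxia, replicate 2 of clone A TIFM, replicate 1 of clone B hypoxia and replicate 3 of clone B TIFM (up to 0.0804). It also missed it on only the 12 libraries compared (0.0683). Between clone A and parental cells in TIFM, FOSL1 was higher in the clone by a log2 of 1.01 ± 0.31 (adjusted p = 0.0062), although the libraries overlapped and the call was lost without replicate 2 of clone A in TIFM (0.0659).

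FOSL2 (ENSG00000075426, chromosome 2, 28392448 to 28417312, plus strand), which encodes FRA-2, had the hypoxia response that separated parental cells from both clones. Parental normoxic libraries held 43.6, 45.1 and 44.9 CPM and hypoxic ones 113.5, 121 and 110.1 CPM, a 2.58-fold rise with a log2 of 1.37 ± 0.11 (adjusted p = 1.5e-09). Clone A went from 50.1, 51.1 and 47.6 CPM to 58.0, 49.6 and 49.95 CPM. Clone B went from 70.6, 68.0 and 61.4 CPM to 80.4, 68.0 and 78.4 CPM. In both clones the libraries of the conditions overlapped, with a log2 of 0.08 ± 0.11 (95% interval -0.14 to 0.30) in clone A and 0.18 ± 0.11 (-0.04 to 0.40) in clone B. Intervals are the estimate ± 1.96 SE and are not adjusted for many genes.

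The hypoxia response of FOSL2 was smaller than the parental one by a log2 of -1.29 ± 0.16 for clone A (adjusted p = 4.92e-06) and -1.19 ± 0.16 for clone B (1.8e-05). These comparisons share the parental libraries. FOSL2 was the 1 early response gene of 7 called in either, where 4.04% of all genes had a lower response in clone A than in parental cells, 2.19% a higher one, and 3.24% and 1.49% in clone B. Both calls stood in each of 12 fits that left out a library. On only the libraries compared, JUN joined in clone A (log2 -0.60, adjusted p = 0.00126) and JUND in clone B (-0.51, 0.0299). In those fits 2656 of 13374 genes were called for clone A and 2592 of 13549 for clone B. Between the clones, 0 of 7 genes differed in their hypoxia response in edgeR and 0 in DESeq2, and 1 (EGR1) had an unadjusted p under 0.05, where 0.0% of all genes were called in each direction. The difference for FOSL2 was 0.10 with an interval of -0.21 to 0.41.

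TIFM raised FOSL2 in all 3 genotypes. Parental libraries reached 168, 136 and 170 CPM (log2 0.46 ± 0.11, adjusted p = 0.00178), clone A 143, 179 and 134 CPM (1.53 ± 0.11, 1.44e-11), and clone B 122, 121 and 143 CPM (0.77 ± 0.11, 2.92e-06). No TIFM library overlapped the hypoxic libraries of its genotype in regular medium. Against parental cells in hypoxic regular medium, FOSL2 was lower by a log2 of -1.13 ± 0.11 (clone A, adjusted p = 8.9e-09) and -0.60 ± 0.11 (clone B, 0.000114). In TIFM the difference was -0.06 ± 0.11 for clone A (adjusted p = 0.687) and -0.29 ± 0.11 for clone B (0.0323). The clone B value in TIFM was lost without replicate 1 or 3 of parental TIFM or replicate 1 or 2 of clone B TIFM (up to 0.128), and on only the libraries compared (0.106). The rise in clone A exceeded the parental one by a log2 of 1.07 ± 0.16 (adjusted p = 9.58e-06), and clone B minus clone A was -0.76 ± 0.16 (0.000679). Fits to only the libraries compared gave 1.07 ± 0.20 (adjusted p = 0.00206) and -0.73 ± 0.20 (0.0214) for these differences. The clone A rise itself was then 1.515 ± 0.19 (adjusted p = 9.66e-05).

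**Figure D2:**
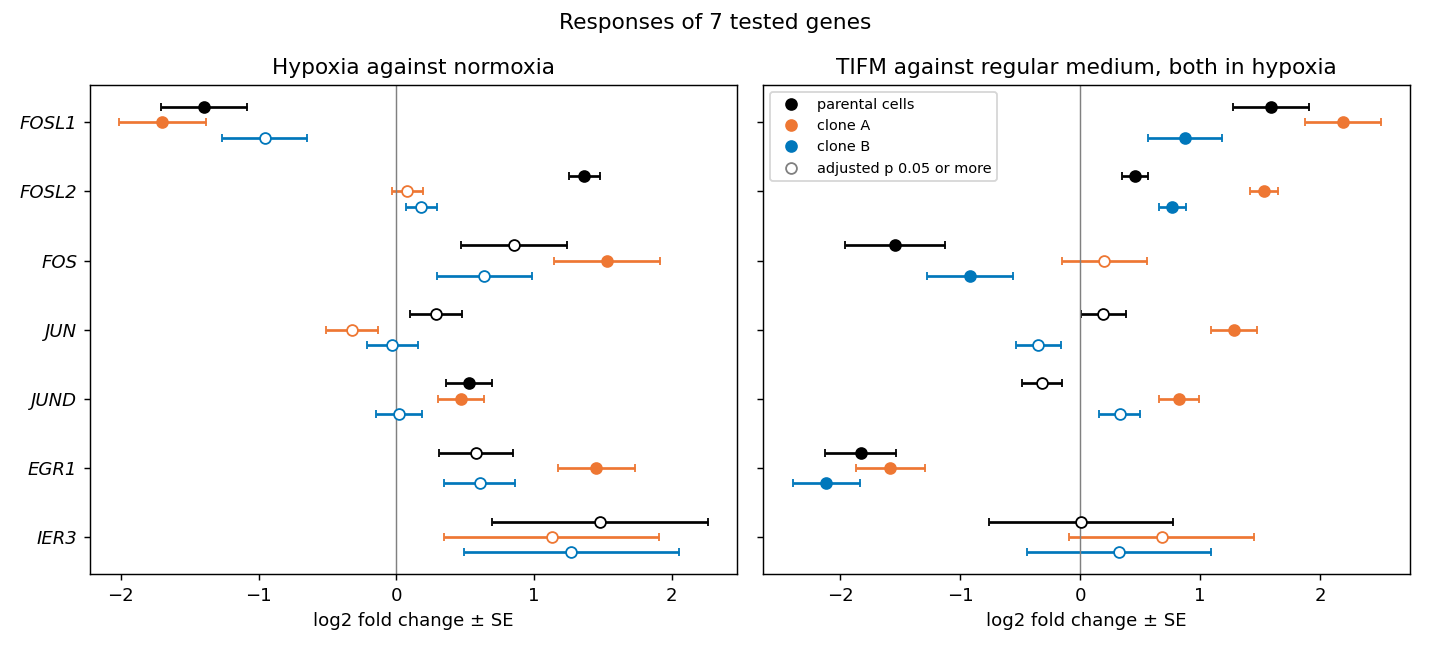
Log2 fold change ± SE from the edgeR fit for hypoxia against normoxia (left) and TIFM against regular medium in hypoxia (right), in parental cells and both clones, with filled points below an adjusted p of 0.05. FOSL2 in hypoxia stands at 1.37 in parental cells and at 0.08 and 0.18 in the clones, and EGR1 in TIFM lies between -1.58 and -2.12.

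FOS (ENSG00000170345, chromosome 14, 75278774 to 75282230, plus strand), the classical immediate early gene, was low at 48 h, at 0.222 to 2.62 CPM or 6 to 79 reads per library. In parental cells it was 0.558, 0.394 and 0.648 CPM in normoxia and 1.00, 0.905 and 0.984 CPM in hypoxia. The libraries did not overlap, but the log2 difference of 0.86 ± 0.38 did not pass (adjusted p = 0.0935), while it did on only the libraries compared (0.0277). In clone A it rose from 0.358, 0.610 and 0.508 CPM to 2.16, 0.946 and 1.19 CPM (log2 1.53 ± 0.38, adjusted p = 0.00573). That call was lost without replicate 1 of hypoxic clone A (0.0646), which was highest in FOS within its group and lowest in FOSL1 of all libraries. Clone B went from 1.04, 1.16 and 1.09 CPM to 1.68, 1.28 and 2.18 CPM, without overlap but without passing (log2 0.64, adjusted p = 0.26). The hypoxia response did not differ between genotypes at the threshold. The log2 differences were 0.67 (clone A minus parental, adjusted p = 0.563), -0.22 (clone B minus parental, 0.908) and -0.89 (clone B minus clone A, 0.86).

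TIFM lowered FOS in parental cells to 0.269, 0.498 and 0.222 CPM, with a log2 change of -1.54 ± 0.42 (adjusted p = 0.00438). Clone A in TIFM held 0.836, 1.58 and 2.62 CPM, which spans its hypoxic values in regular medium (log2 0.20 ± 0.35, adjusted p = 0.626). Clone B fell from 1.68, 1.28 and 2.18 CPM to 0.731, 0.795 and 1.21 CPM (log2 -0.92 ± 0.36, adjusted p = 0.0331). The clone B call was lost without replicate 1 or 3 of hypoxic clone B or replicate 1 or 2 of clone B in TIFM (up to 0.15). The TIFM response of FOS was higher in clone A than in parental cells by a log2 of 1.74 ± 0.55 (adjusted p = 0.0134). It missed the threshold without replicate 3 of clone A in TIFM (0.0595) and on only the libraries compared (0.0578). In TIFM itself both clones exceeded parental cells, with log2 differences of 2.31 ± 0.42 (clone A, 3.26e-05) and 1.45 ± 0.43 (clone B, 0.00701). The clone B value was lost when replicate 3 of all 3 TIFM groups was left out (0.0764). FOSB (ENSG00000125740, chromosome 19, 45467995 to 45475179, plus strand) lies between ERCC1, with 32943 reads over all libraries, and RTN2, with 1835. It was listed at 0. Its level is not known from these data, since 5 of 81 ribosomal protein genes (RPL15, RPL32, RPL35A, RPS10 and RPS4X) and 2330 of 19889 protein-coding genes were also listed at 0.

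Set on a common scale per exon length (CPM per kilobase), FOSL1 was the most abundant messenger among FOS, FOSL1 and FOSL2 in every library. It made up 90.1 ± 1.41% of the summed FOS, FOSL1 and FOSL2 level in parental normoxia and 57.6 ± 3.72% in parental hypoxia (SD, n = 3). FOSL2 took 9.67 ± 1.32% and 41.6 ± 3.70%. In clone A the FOSL2 share was 6.70 ± 0.238% in normoxia and 21.3 ± 9.14% in hypoxia, and in clone B 13.9 ± 0.877% and 26.5 ± 4.84%. The hypoxic share was 37.4% or more in each parental library and 31.9% or less in each clone library. In TIFM it was 26.9 ± 10.4% in parental cells, and clones A and B had 13.9 ± 2.06% and 26.8 ± 10.7%. The log2 ratio of FOSL1 to FOSL2 per length was 3.23, 0.47 and 1.51 in parental normoxia, hypoxia and TIFM, 3.80, 1.93 and 2.63 in clone A, and 2.62, 1.46 and 1.50 in clone B. In the clones, where FOSL2 itself did not pass in hypoxia, its larger share went with the lower FOSL1 level. FOS stayed at 2.61% or below in every library.

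**Figure D3:**
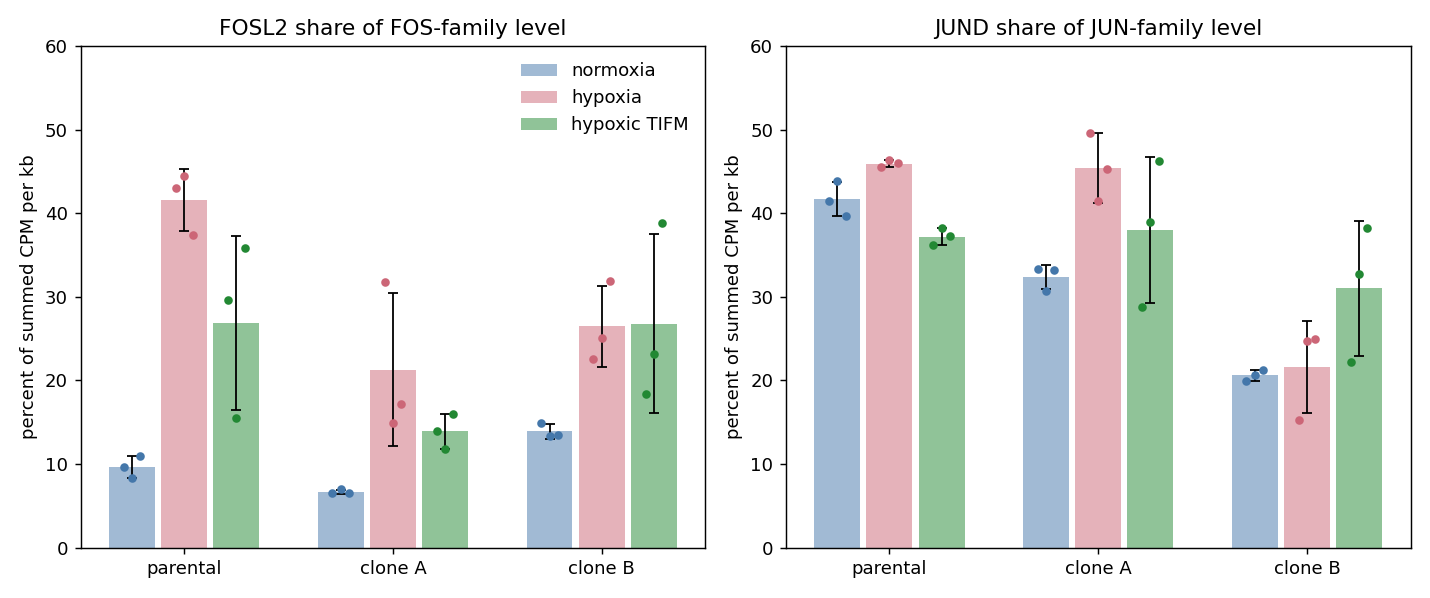
FOSL2 as a percent of the summed FOS, FOSL1 and FOSL2 level (left) and JUND as a percent of the summed JUN and JUND level (right), from CPM per kilobase of exon, with bars for means, error bars for SD and points for the 3 libraries of each group. The FOSL2 share in parental hypoxia is 41.6%, and the JUND share in clone B normoxia is 20.6% against 41.7% in parental normoxia.

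JUN (ENSG00000177606, chromosome 1, 58780788 to 58784327, minus strand), the main JNK-regulated AP-1 subunit, was higher in both clones than in parental cells in normoxia. Parental libraries held 44.7, 48.5 and 41.7 CPM, clone A 79.2, 74.3 and 69.1 CPM and clone B 116, 117 and 102 CPM, with no overlap. The log2 differences from parental cells were 0.72 ± 0.19 (clone A, adjusted p = 0.00422) and 1.31 ± 0.19 (clone B, 6.16e-06). JUN was the 1 of 7 early response genes called in clone A in normoxia, where 15.9% of all genes were higher and 15.8% lower. FOSL1 was at a log2 of 0.71 (adjusted p = 0.079) there, and it passed with a replicate block (0.0454) and on only the libraries compared (0.000119). In clone B in normoxia, JUN, FOSL2, EGR1 and FOS were all higher, where 13.2% of all genes were higher and 13.3% lower.

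In hypoxia JUN was 53.7, 55.1 and 56.1 CPM in parental cells, 52.4, 64.3 and 61.8 CPM in clone A, and 136, 100.6 and 92.0 CPM in clone B. Clone B stayed above parental cells by a log2 of 0.99 ± 0.19 (adjusted p = 0.000154), and clone A did not pass (0.11 ± 0.19, 0.666). Of the 7 genes, FOSL2 alone was called for clone A against parental cells in hypoxia, and it was lower (20.5% of all genes higher, 20.9% lower). For clone B, JUN and EGR1 were higher and FOSL2 and JUND lower (16.9% and 19.0%). The hypoxia response of JUN was 0.29 ± 0.19 for parental cells (adjusted p = 0.256), -0.32 ± 0.19 for clone A (0.233) and -0.03 ± 0.19 for clone B (0.953), and normoxic and hypoxic libraries overlapped in clone B alone. On only the libraries compared, the parental difference (0.28, adjusted p = 0.00566) and the opposite one of clone A (-0.29, 0.0202) passed. In TIFM clone A raised JUN to 159, 170 and 106 CPM, a log2 of 1.28 ± 0.19 (adjusted p = 1.71e-06). Parental cells held 58.3, 78.3 and 52.2 CPM and clone B 116, 78.9 and 62.9 CPM, each overlapping its hypoxic libraries in regular medium. The TIFM response of clone A exceeded that of parental cells by 1.09 ± 0.27 (adjusted p = 0.00215), and that of clone B was below that of clone A by -1.63 ± 0.27 (7.27e-05). Fits to only the libraries compared gave 1.08 ± 0.26 (adjusted p = 0.00776) and -1.60 ± 0.33 (0.00614) for these differences.

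JUND (ENSG00000130522, chromosome 19, 18279760 to 18281622, minus strand) encodes the JUN family member that is present in resting cells and tends to restrain growth. It was 16.6, 19.9 and 14.5 CPM in parental normoxia and 23.6, 25.0 and 25.2 CPM in hypoxia (log2 0.53 ± 0.17, adjusted p = 0.018). That call was lost without replicate 1 or 3 of parental normoxia or replicate 2 or 3 of parental hypoxia (up to 0.101). In clone A, 20.8, 17.3 and 18.1 CPM rose to 27.2, 23.9 and 26.9 CPM (0.47 ± 0.17, 0.0441). This call did not survive the loss of any of the 3 normoxic libraries or of hypoxic replicate 1 or 3 (up to 0.146), nor the fit with no filter on low counts (0.0543). Clone B held 12.9 to 17.3 CPM in both conditions, and in hypoxia it was below parental cells by a log2 of -0.67 ± 0.17 (0.00252).

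TIFM raised JUND in clone A to 34.0, 56.9 and 47.7 CPM (log2 0.83 ± 0.17, adjusted p = 0.000105), above every other library of the series. This response exceeded the parental one by 1.15 ± 0.24 (0.000459), while parental TIFM libraries held 17.4, 25.5 and 16.4 CPM. Fits to only the libraries compared gave 0.81 ± 0.21 for the clone A rise (adjusted p = 0.00829). Its excess over the parental response was then 1.14 ± 0.28 (adjusted p = 0.00896). Clone B in TIFM held 17.5, 20.2 and 20.4 CPM, above its 12.9 to 17.3 CPM in regular medium, without passing the test (0.33 ± 0.17, adjusted p = 0.104). Per length, JUND was 41.7 ± 2.06% of the summed JUN and JUND level in parental normoxia, 32.4 ± 1.46% in clone A and 20.6 ± 0.677% in clone B. JUNB (ENSG00000171223, chromosome 19, 12791496 to 12793315, plus strand) was listed at 0 in all libraries. It is 1 of 5 genes at 0, with PRDX2, THSD8, RNASEH2A and RTBDN, that lie inside the annotated span of HOOK2, a gene with 5610 reads, and RTBDN also overlaps MAST1, with 98. Since 14.2% of its exon length also belongs to HOOK2 on the other strand, and its neighbours are at 0 too, its level is not known from these data.

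In TIFM, 4 of the 7 genes were higher in clone A than in parental cells (JUND, FOS, FOSL1, JUN), where 30.9% of all genes were higher and 30.7% lower. In clone B FOS was higher and FOSL2 lower, where 22.1% of all genes were higher and 25.4% lower. JUN in clone B was at a log2 of 0.45 ± 0.19 (adjusted p = 0.0505), just short, and passed with RLE factors (0.0374), in DESeq2 (0.0304), with a replicate block (0.0291), without replicate 2 of parental TIFM or replicate 3 of clone B TIFM, and without all replicate 3 TIFM libraries (0.0125). The TIFM response was larger in clone A than in parental cells for 4 of 7 genes, FOS, FOSL2, JUN and JUND (19.3% of all genes higher, 19.6% lower). For clone B minus parental the count was 0 of 7 in edgeR and 0 in DESeq2, with JUND alone at an unadjusted p under 0.05 (4.06% and 6.34% of all genes). For clone B minus clone A, FOSL1, FOSL2 and JUN were lower (18.8% of all genes higher, 21.3% lower).

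EGR1 (ENSG00000120738, chromosome 5, 138465490 to 138469315, plus strand), a zinc finger factor induced through SRF, was low throughout, at 0.689 to 9.77 CPM or 23 to 332 reads. In parental cells it was 2.60, 2.39 and 4.14 CPM in normoxia and 4.97, 5.08 and 3.54 CPM in hypoxia. The overlap there rests on replicate 3 of each group, and the log2 of 0.58 ± 0.27 did not pass (adjusted p = 0.104). It passed without replicate 3 of parental normoxia (0.0347) and on only the libraries compared (0.0358). In clone A it rose from 1.79, 1.38 and 2.91 CPM to 6.18, 5.43 and 5.18 CPM (log2 1.46 ± 0.28, adjusted p = 0.000664). In clone B it went from 4.48, 6.16 and 4.78 CPM to 9.77, 6.93 and 6.79 CPM (0.61 ± 0.26, 0.138), and this passed on only the libraries compared (0.00948).

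TIFM lowered EGR1 in each genotype without overlap. Parental libraries fell to 0.689, 1.89 and 1.30 CPM (log2 -1.83 ± 0.29, adjusted p = 2.08e-05), clone A to 1.84, 1.75 and 2.03 CPM (-1.58 ± 0.29, 2.93e-05), and clone B to 2.07, 1.46 and 1.89 CPM (-2.12 ± 0.28, 7.71e-07). These falls are 3.55-fold, 2.99-fold and 4.33-fold. No difference between genotypes in this fall passed the threshold. It was 0.25 (interval -0.56 to 1.05) for clone A minus parental and -0.29 (-1.09 to 0.51) for clone B minus parental. For clone B minus clone A it was -0.53 (adjusted p = 0.301 by edgeR). The intervals reach 1.05 and -1.09, so equal falls are not shown. Clone B held more EGR1 than parental cells in normoxia (0.76 ± 0.27, 0.0363) and in hypoxia (0.79 ± 0.26, 0.0184). The normoxic call was lost without replicate 1 or 2 of parental normoxia or replicate 2 or 3 of clone B normoxia (up to 0.168). The hypoxic one was lost without replicate 3 of parental hypoxia or replicate 1 of clone B hypoxia (up to 0.117). The normoxic rise of FOS in clone B (1.04 ± 0.38, 0.044), from 0.533 to 1.10 CPM in the mean, was lost without any 1 of the 6 libraries (0.0554 to 0.166) and with no filter on low counts (0.053).

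EGR3 (ENSG00000179388), a relative of EGR1 that EGR1 and MAP kinases induce, had 77 reads over all 27 libraries and 0 in 9 of them. Replicate 1 of hypoxic clone B held 25 of those reads, at 0.736 CPM, and the other 2 libraries of that group 4 and 7. No other library had more than 8. It was not tested.

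IER3 (ENSG00000137331, chromosome 6, 30743199 to 30744554, minus strand), also called IEX-1, is induced by NF-kB and stress and protects cells from death. Normoxic libraries of the 3 genotypes lay within 41.1 to 48.1 CPM. Every hypoxic library in regular medium lay above that range, at 121, 136 and 110.0 CPM in parental cells, 137, 63.3 and 92.5 CPM in clone A, and 80.5, 97.6 and 155 CPM in clone B. The log2 differences of 1.48 ± 0.79, 1.13 ± 0.78 and 1.27 ± 0.78 did not pass in the fit to all libraries (adjusted p = 0.164, 0.322 and 0.337). On only the libraries compared they passed, with adjusted p = 2.71e-08 (parental), 0.0104 (clone A) and 0.0145 (clone B). The gene shares 26.5% of its exon length with an antisense gene, IER3-AS1, and whether the counting used strand is not given in the sources used here.

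In TIFM, IER3 was 115, 88.3 and 166 CPM in parental cells, 23.5, 33.2 and 414 CPM in clone A, and 22.1, 78.8 and 316 CPM in clone B. The highest library exceeded the lowest 17.7-fold in clone A and 14.3-fold in clone B, against 1.88-fold in parental cells. Replicate 3 was highest in all 3 groups. The log2 change with TIFM was 0.01 ± 0.77 for parental cells and 0.68 ± 0.77 and 0.33 ± 0.77 for clones A and B, with adjusted p = 0.994, 0.448 and 0.746. Without replicate 3 of the 3 TIFM groups the sign turned in the clones, to -1.77 ± 0.36 (clone A, adjusted p = 0.000128) and -1.11 ± 0.34 (clone B, 0.0083). Leaving out replicate 3 of clone A in TIFM alone gave -1.77 ± 0.67 (0.0265), whereas leaving out that of clone B alone gave -1.14 ± 0.74 without passing (0.21). IER3 in TIFM therefore has no direction in the clones that holds across libraries. In 5 of the 6 hypoxic groups the library highest in IER3 was lowest in FOSL1, the exception being parental hypoxia. No normoxic group showed this, and in each TIFM group the library was replicate 3. Whether this exceeds what groups of 3 libraries would give was not tested. NFKBIA, an NF-kB inhibitor and target, is shown because its Pearson r with IER3 over these 27 libraries was the highest of the non-member genes (0.901). In TIFM it was 40.8, 59.3 and 300.4 CPM in clone A and 25.7, 59.8 and 167 CPM in clone B. Because it was chosen on these libraries, its likeness to IER3 here is a description only.

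**Figure D4:**
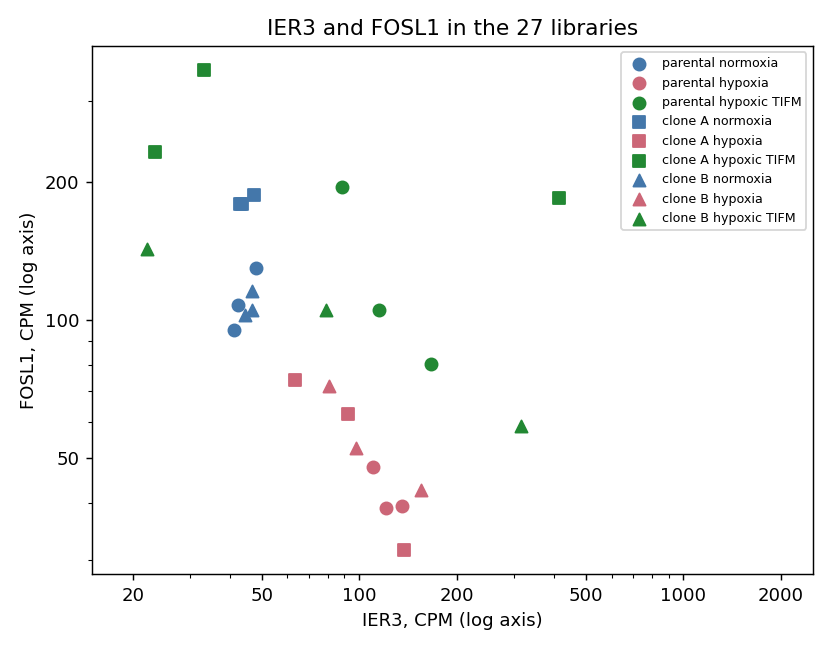
IER3 against FOSL1 in CPM (both axes log) for the 27 libraries, with shapes for genotype and colours for condition. Normoxic libraries share 1 narrow IER3 range of 41.1 to 48.1 CPM, and replicate 3 of the clones in TIFM lies far to the right at 414 and 316 CPM.

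The other genes of the pathway were described from lists of partners, regulators and targets. Each TIFM count stands beside these shares of all genes: 21.8% rose and 20.4% fell in parental cells, 67.2% changed in either direction in clone A, and 25.9% rose and 27.9% fell in clone B. In hypoxia 15.4% rose and 14.9% fell in parental cells, 10.4% and 11.8% in clone A, and 4.46% and 4.84% in clone B. Among 12 dimer partners of AP-1, 10 were tested. In parental hypoxia 4 rose, with MAFF, a small MAF protein, at a log2 of 1.36 ± 0.15 and ATF3, a stress-induced repressor, at 0.97 ± 0.15, and the list median was 0.66 against -0.002 for all genes. In clone B ATF3 (0.65 ± 0.15) and MAFF (0.55 ± 0.14) rose, and in clone A MAF alone rose. TIFM raised 6 of the 10 in parental cells, among them JDP2 (1.65 ± 0.13), a repressor of AP-1. In clone A 6 rose and 3 fell. ATF3 there went from 17.2 to 170 CPM (3.30 ± 0.16) and MAFF from 7.81 to 90.6 CPM (3.53 ± 0.15), while ATF2 fell (-1.70 ± 0.18). In clone B 5 rose and 2 fell, with ATF3 at 1.47 ± 0.15 and MAFF at 1.75 ± 0.14. MAF was far higher in clone B than in parental cells in normoxia, at 7.27 against 0.031 CPM, and the parental value rests on few reads.

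SRF, which drives FOS and EGR1 through CArG boxes, rose in TIFM while EGR1 fell. Its log2 change was 0.76 ± 0.13 (parental), 1.98 ± 0.13 (clone A) and 0.90 ± 0.13 (clone B). MRTFB, an actin-regulated SRF cofactor, fell in each (-0.57 ± 0.17, -1.82 ± 0.17 and -0.74 ± 0.17). The EGR1 corepressor gene NAB2 rose in parental hypoxia (0.86 ± 0.14) and in clone A in TIFM (1.32 ± 0.14), and NAB1 fell with TIFM in all 3 genotypes (-0.46, -1.05 and -0.39).

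Of 14 MAP kinase genes, all tested, 4 rose and 4 fell with TIFM in parental cells, 6 and 5 in clone A, and 7 and 6 in clone B. The list medians were 0.01, -0.08 and 0.18. MAP2K1, which encodes MEK1, rose in parental cells (0.55 ± 0.10) and clone A (1.22 ± 0.10). MAPK3, which encodes ERK1, fell in parental cells (-0.92 ± 0.17) and clone B (-1.04 ± 0.18). Among 11 ERK feedback inhibitors, with 10 tested, 4 rose and 1 fell with TIFM in parental cells, and 4 rose and 2 fell in each clone. The list medians were 0.22 (parental), 0.01 (clone A) and 0.20 (clone B). SPRY4 fell in all 3 genotypes, from 91.3 to 45.7 CPM in parental cells, 194.6 to 77.1 CPM in clone A and 166 to 78.7 CPM in clone B. Against parental cells in normoxia, 7 were higher and 2 lower in clone A, and 4 higher and 2 lower in clone B. Of all genes, 15.9% were higher and 15.8% lower in clone A, and 13.2% and 13.3% in clone B. The log2 difference of SPRY4 was 1.30 ± 0.24 (clone A) and 0.96 ± 0.23 (clone B), and that of DUSP5, a nuclear ERK phosphatase, was 1.46 ± 0.16 in clone B. In hypoxia DUSP5 was 15.3 CPM in parental cells, 37.8 CPM in clone A and 88.1 CPM in clone B. Of 7 EGFR ligand genes 4 were tested, and 3 were lower in each clone in normoxia. EREG was 5.78 CPM in parental cells against 0.222 CPM (clone A) and 0.201 CPM (clone B), and TGFA was 7.14, 0.328 and 0.529 CPM in the same order. TIFM raised TGFA in each genotype, to 29.9, 2.54 and 2.15 CPM.

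Among 28 other immediate early genes, all tested, 10 rose and 3 fell in parental hypoxia (list median 0.34), 6 and 3 in clone A (0.38), and 4 rose in clone B (0.35). KLF4 (1.98 ± 0.23) and the ERK phosphatase gene DUSP1 (1.52 ± 0.22) led in parental cells, and the growth-arrest gene BTG2 fell (-1.29 ± 0.25). TIFM raised 14 and lowered 3 in parental cells and in clone A, and raised 9 and lowered 7 in clone B (list medians 0.48, 0.54 and 0.35). The 17 called in clone A are a smaller share of the list than 67.2%. PPP1R15A, which encodes the stress-induced phosphatase subunit GADD34, rose by a log2 of 2.19 ± 0.16 (parental), 4.01 ± 0.17 (clone A) and 2.29 ± 0.16 (clone B). KLF10 rose by 3.68 ± 0.18 (clone A) and 2.45 ± 0.17 (clone B).

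Of 15 AP-1 target genes 9 were tested. In hypoxia 2 rose and 1 fell in parental cells, 2 fell in clone A and 1 in clone B. With TIFM 6 rose in parental cells, 5 rose and 2 fell in clone A, and 5 rose and 1 fell in clone B (list medians 0.67, 1.74 and 0.62). HMGA1, a chromatin protein gene, rose by 1.24 ± 0.17, 2.03 ± 0.17 and 1.29 ± 0.17. Among the 6 EGR1 target genes, 3 rose in parental hypoxia, with PDGFB from 45.6 to 215 CPM (2.24 ± 0.15), while PDGFB fell in clone A (-0.50 ± 0.14). With TIFM 2 rose in parental cells, 3 rose and 2 fell in clone A, and 1 rose and 1 fell in clone B, with list medians of 0.19, 0.14 and -0.22. F3, the tissue factor gene, rose in each genotype (2.26 ± 0.30, 1.37 ± 0.33 and 1.84 ± 0.31).

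NF-kB target genes share a regulator with IER3. Of 11 tested, 2 rose and 4 fell with TIFM in parental cells, 1 rose and 7 fell in clone A, and 8 fell in clone B, with list medians of -0.39, -1.14 and -1.05. The share called in clone A, in either direction, is near that of all genes. CCL2, a monocyte chemokine, fell in each (-1.81 ± 0.51, -2.70 ± 0.73 and -1.88 ± 0.53). In hypoxia CCL2 had risen in clone A (2.63 ± 0.69) and clone B (2.81 ± 0.55). Beside the TIFM results stand 5 epithelial and Panc1 markers, of which 1 rose and 4 fell in parental cells, 1 rose and 3 fell in clone A, and 4 fell in clone B (list medians -0.99, -0.91 and -2.13). KRT8 had log2 changes of -1.71, -1.77 and -3.05 and KRT7 of 0.47, 1.41 and 0.06 in that order. The part of this shift in the early response results was not tested.

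The genes most like each member across the 27 libraries were ranked by Pearson r of log2 CPM, which follows the 9 groups that all genes share and is given as a description. FOSL2 lay nearest PYGL (0.942), a glycogen phosphorylase, BLCAP (0.928) and ADM (0.925), the adrenomedullin gene. FOSL1 lay nearest C11orf68 (0.942), TUBA1C (0.928) and PFAS (0.927). IER3 lay nearest NFKBIA (0.901), FGF18 (0.877) and CCDC92 (0.859). EGR1 lay nearest CLDN14 (0.862), DSTN (0.857) and GSTT2B (0.843). Among the members themselves, EGR1 and FOS had the highest r (0.613), and FOSL1 had negative values with EGR1 (-0.592) and IER3 (-0.536). FOSL1 and FOSL2 had 0.102.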

How the data were processed

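RNA from 27 Panc1 libraries was measured. The deposited table holds read counts per Ensembl gene, which were assumed to be raw. HISAT2, featureCounts and build GRCh38 are named in the submitters' processing notes, and of their versions, parameters and strand setting nothing is stated in the labels. Columns were matched to samples by name, and 0 columns were left without a sample. Identifiers were paired with symbols through GENCODE v29 (21409 of 21487). edgeR 4.0.16 in R 4.3.3 was fitted to all 27 libraries with 9 group coefficients, TMM factors and robust quasi-likelihood dispersions. The filter on low counts kept 13943 genes (minimum count 10, minimum total 15). There were 18 contrasts, with adjusted p under 0.05 as the call. CPM values are TMM-scaled, and log2 CPM for correlations used a prior count of 2. Alternatives were RLE and upper-quartile factors, DESeq2 1.42.0, no filter, only the libraries compared, a replicate block, and each library left out. Leaving out replicate 3 of the 3 TIFM groups was added after seeing the data. The edgeR step was tested on simulated counts with the same spread in all groups. Spread differed between the real groups, so that test does not cover its effect on the calls.

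The members and gene lists were chosen with earlier results of these data known. Text names all 10 members and, per list and contrast, at most the 2 called genes with the largest rise and the 2 with the largest fall. It also names, for members described, the 3 genes with the highest Pearson r, with further values of those genes, ARNT and VEGFA. Values of NFKBIA by library are shown because it was nearest IER3. Replicate numbers were not used as a block in the main fit: of 36 pairs of groups, 0 had every correlation of same-numbered deviations over 0.1. In TIFM the correlations of clone A with clone B were 0.372, 0.0704 and 0.45. Parental cells in TIFM had 0.233, 0.195 and -0.0424 with clone A and 0.0645, 0.126 and 0.25 with clone B. Whether TIFM libraries of the same number share an effect was not tested. FOS rests on 6 to 79 reads per library. No protein sequences were used. A few genes of the lists are not reported here.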

Additional observations from a re-analysis of the deposited data

Results flagged for a closer look

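A test of the difference between genotypes picked out 9 responses, each given in log2 from the edgeR fit. The hypoxia response of FOSL2 was lower than the parental one in clone A (-1.29) and in clone B (-1.19). The TIFM response in clone A was above the parental one for FOS (1.74), FOSL2 (1.07), JUN (1.09) and JUND (1.15). The TIFM response in clone B was below that of clone A for FOSL1 (-1.31), FOSL2 (-0.76) and JUN (-1.63). The FOS value was lost without replicate 3 of clone A in TIFM, and the FOSL1 value without any 1 of 4 libraries. Both also missed the threshold in edgeR on only the libraries compared (adjusted p = 0.0578 and 0.0683). The pairs of differences share the clone A or parental libraries.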

How the results depend on the processing

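Of 1820 single-gene values under an alternative, 1731 kept their side of the threshold, 46 lost a call, 36 gained one and 7 reversed. A reversal was counted only where the value passed the threshold in the main fit or in the alternative. Changes of sign in values that passed in neither are among the 1731. All 7 reversals were IER3 in TIFM. Leaving out replicate 3 of the 3 TIFM groups gave log2 values of -1.77 (TIFM in clone A), -1.11 (TIFM in clone B), -1.85 (clone A against parental in TIFM), -0.99 (clone B against parental in TIFM) and -1.50 (TIFM response of clone A minus parental). With 1 library left out, IER3 ran from -1.77 to 1.19 for TIFM in clone A and from -2.13 to 0.86 for clone A against parental in TIFM, the low ends without replicate 3 of clone A in TIFM. On only the libraries compared, the number of early response genes called went from 3 to 7 for hypoxia in parental cells, 0 to 3 for hypoxia in clone B, 1 to 2 for clone A against parental in normoxia, 2 to 1 for clone B against parental in TIFM, and 1 to 2 for the hypoxia responses of clone A and of clone B minus parental. It also went from 4 to 6 for hypoxia in clone A and 4 to 5 for clone B against parental in hypoxia. For the TIFM responses it went from 4 to 3 (clone A minus parental) and 3 to 2 (clone B minus clone A). The other counts did not change. Calls over all genes also changed, from 4212 of 13943 to 6804 of 13086 for hypoxia in parental cells. They went from 1297 to 4242 of 13012 for hypoxia in clone B. Against parental they went from 4408 to 6251 of 12719 (clone A, normoxia) and 6616 to 5232 of 12973 (clone B, TIFM). For the hypoxia responses minus parental they went from 869 to 2656 of 13374 (clone A) and 660 to 2592 of 13549 (clone B). They fell from 9368 to 6981 of 12651 for TIFM in clone A and from 8597 to 5402 of 12800 for clone A against parental in TIFM. For the TIFM responses they fell from 5426 to 3539 of 13562 (clone A minus parental) and 5583 to 3252 of 13446 (clone B minus clone A). The cause was not tested. DESeq2 called 1 for hypoxia in clone B. A replicate block called 1 for hypoxia in clone B and 2 for clone A against parental in normoxia, through FOSL1 in both. The other counts stayed within 1.5 times under it. It also brought JUN in clone B against parental in TIFM past the threshold. Of 27 libraries, 12 correlated best with their own number, and correlations ran from -0.19 to 0.45. With 1 library left out, the count ran from 2 to 4 for hypoxia in clone A, 0 to 1 for hypoxia in clone B, 2 to 4 for TIFM in clone B, 1 to 2 for clone A against parental in normoxia, 2 to 3 for clone B against parental in normoxia, 1 to 4 for clone B against parental in TIFM, 0 to 1 for the TIFM response of clone B minus parental, and 2 to 5 for that of clone B minus clone A. Contrasts whose count stayed within 1.5 times with 1 library left out are not in that list. FOS, EGR1 and EGR3 had the fewest reads of the genes with any, at 6 to 79, 23 to 332 and 0 to 25 reads per library.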
